A study of Mus musculus with 10 samples.

Results

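In all, 4 libraries of mouse embryonic stem (ES) cells kept in 2iL were compared, 2 from the experiment numbered 2 (exp2_1 and exp2_2) against 2 from the experiment numbered 1 (exp1_1 and exp1_2). They were chosen by their titles, are 4 of the 10 libraries of the series, and carry the same labels except for the experiment and library numbers. All 4 came from the blastocyst-derived line E14, stably transfected with an Esrrb construct that doxycycline (DOX) switches on, and none received DOX. The cells grew on gelatin in 2iL, which is the serum-free medium N2B27 with LIF, a cytokine, and 2 inhibitors. CHIR99021 at 3 µM blocks the kinase GSK3, and PD0325901 at 1 µM blocks the kinase MEK. The other 6 libraries were collected 96 h after 2iL was taken away, 3 without DOX (2 of experiment 1 and 1 of experiment 2) and 3 with DOX (2 and 1). The comparison asked how naive cultures in the same medium differed from one experiment to the next. The sources used here do not say what set the experiments apart, whether 2 libraries of 1 experiment were separate cultures, whether the line was 1 clone, or which promoter drives the construct. The p-values therefore measure only the spread between these libraries.

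GSK3 marks beta-catenin for destruction, so a GSK3 inhibitor lets beta-catenin build up and act with the TCF and LEF transcription factors. In ES cells this lifts repression by TCF7L1 from naive genes, and in the embryo the same pathway switches on primitive streak genes such as T (Brachyury) and, later, the Cdx genes of the posterior body. The MEK inhibitor blocks ERK signalling and LIF acts through STAT3. Together these hold ES cells in the naive state, which resembles the pre-implantation epiblast.

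Reads came from the 3′ ends of polyA RNA, and 2769071 to 3586901 reads per library fell in genes. Levels are in CPM, the reads of a gene scaled to a total of 1e6 reads, and 1 read was worth 0.279 to 0.361 CPM. The overlap with ribosomal RNA sequence makes Gm42418 a gauge of ribosomal carry-over; it took 3.47% to 4.72% of the reads, and mitochondrial genes took 0.824% to 1.16%. The mitochondrial share was 0.824% and 0.972% in experiment 1 and 1.16% and 1.09% in experiment 2, and ribosomal protein genes took 15.05%, 15.1%, 16.4% and 15.8%. With Gm42418 and the mitochondrial genes taken out, 42 of the 52 genes called below were still called; the part of the ribosomal protein share was not tested. Defining markers of other cells were near 0: 10 of 14 macrophage and blood markers, 5 of 12 liver and endothelium markers and 2 of 15 fibroblast markers had no read in any of the 4 libraries. Their summed levels were 11.5 to 28.4, 5.75 to 13.3 and 5.45 to 13.9 CPM. No label names a sequencing batch, so a batch and an experiment cannot be told apart.

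Esrrb (ENSMUSG00000021255, chromosome 12, 86361117 to 86521628, mm10), a nuclear receptor of the naive network and the gene that the construct carries, held 360 and 219 CPM in exp1_1 and exp1_2 and 319 and 312 CPM in exp2_1 and exp2_2. The values of experiment 2 lay between those of experiment 1. The log2 fold change of experiment 2 against 1 was 0.12 ± 0.22 (SE; 95% interval -0.33 to 0.58; edgeR's quasi-likelihood test, Benjamini-Hochberg adjusted p = 0.899). At 96 h Esrrb held 23.6, 13.5 and 31.9 CPM without DOX and 12.9, 26.9 and 14.5 CPM with DOX. Its counts thus showed no rise with DOX and cannot be read as the level of the construct. The reason was not tested.

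Genes higher in the cultures of experiment 2 included the beta-catenin targets T, Sp5, Cdx1, Cdx2 and Lef1, and genes lower there included the tubulins Tubb3 and Tuba1c and the stress-induced gene Gdf15. Levels below are CPM after scaling by the trimmed mean of M values (TMM), each fold change is experiment 2 against experiment 1, and a gene was called at an adjusted p below 0.05 in edgeR's quasi-likelihood test. Of 10090 genes tested, 52 were called (0.515%). Of these, 28 (0.278%) were higher and 24 (0.238%) were lower in experiment 2. At an unadjusted p below 0.05 there were 1116 genes (11.1%), and for 4153 genes (41.2%) the values of the experiments did not overlap, with 21.4% higher and 19.7% lower in experiment 2. The split of calls was 28 higher and 12 lower with library totals in place of TMM, 31 and 43 with DESeq2 and 16 and 23 with limma-voom. The median log2 fold change of all tested genes was -0.0067. By chromosome the medians ran from -0.056 to 0.060.

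**Figure D1:**
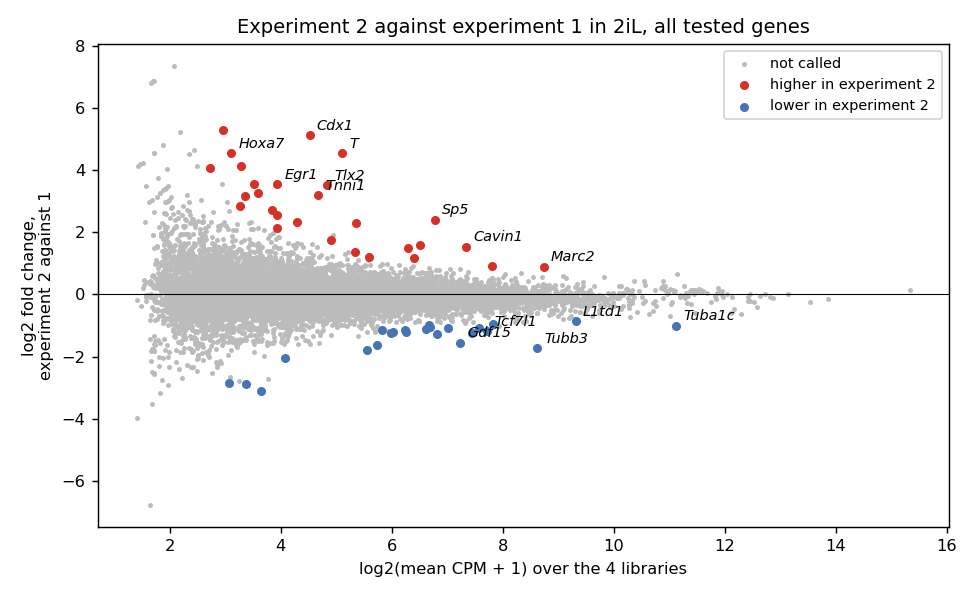
Log2 fold change of experiment 2 against 1 (vertical) against the log2 of the mean CPM + 1 over the 4 libraries kept in 2iL (horizontal), 1 point for each of 10090 tested genes. Red points are the 28 genes called higher and blue points the 24 called lower in experiment 2; most of the grey cloud lies around 0 and widens at low levels.

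The 2 libraries of experiment 1 were as far apart as libraries of different experiments. Among genes with at least 30 CPM in either library, 215 of 4896 (4.39%) differed more than 2-fold between exp1_1 and exp1_2. Between exp2_1 and exp2_2, 26 of 4825 (0.539%) did so. Pairs across experiments gave 155 to 253 genes (3.17% to 5.13%). Across genes, the correlation of log2(CPM + 1) was 0.945 within experiment 1, 0.964 within experiment 2 and 0.932 to 0.948 between them; genes are not independent replicates. The first principal component (49.0% of the variance) placed exp1_1 at -44.1, exp1_2 at -8.20, and the exp2 libraries at 23.9 and 28.4. It put both exp1 libraries below both exp2 libraries, but exp1_1 lay farther from exp1_2 than exp1_2 lay from exp2_1. The component thus mixed the difference between experiments with that within experiment 1.

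**Figure D2:**
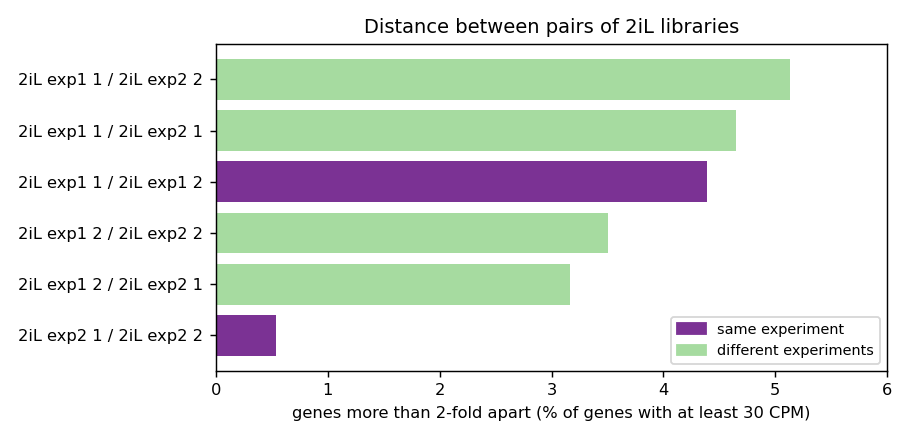
Percent of genes that differed more than 2-fold (horizontal axis) for each pair of the 4 libraries kept in 2iL, over genes with at least 30 CPM in either library of the pair. Purple bars are pairs of the same experiment and green bars pairs of different experiments; the exp1 pair reached 4.39%, within the range of the green bars, and the exp2 pair 0.539%.

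Among direct readouts of beta-catenin was T (ENSMUSG00000062327, chromosome 17, 8434423 to 8442496). This T-box factor of the primitive streak held 4.12 and 1.40 CPM in exp1_1 and exp1_2, against 68.1 and 60.2 CPM in exp2_1 and exp2_2. Both exp2 libraries lay far above both exp1 libraries. The means were 2.76 ± 1.92 and 64.1 ± 5.56 CPM (SD, n = 2 each), a 23.4-fold rise with a log2 fold change of 4.55 ± 0.43 (SE; adjusted p = 1.32e-05 in edgeR's quasi-likelihood test). The log2 fold change was 5.47 without exp1_1 and 3.95 without exp1_2, so its size rested on which exp1 library was kept.

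Sp5 (ENSMUSG00000075304, chromosome 2, 70474923 to 70477729), a zinc finger factor that beta-catenin and TCF factors switch on directly, held 30.1 and 38.4 CPM in experiment 1 and 174 and 190 CPM in experiment 2. The groups stood clear of each other, a 5.29-fold rise (log2 fold change 2.40 ± 0.23, edgeR adjusted p = 1.32e-05). Cdx1 (ENSMUSG00000024619), a caudal-type homeobox factor, held 0.634 and 1.68 CPM against 44.7 and 40.6 CPM. It went from 8 reads in experiment 1 to 265 in experiment 2, a log2 fold change of 5.13 ± 0.51 (edgeR adjusted p = 1.56e-05; 4.63 without exp1_1 and 5.98 without exp1_2). Its relative Cdx2, which also marks trophoblast, held 0.317 and 1.40 CPM against 13.02 and 19.9 CPM (4.16 ± 0.70 on the log2 scale, edgeR adjusted p = 0.00613). Lef1, a partner of beta-catenin on DNA, held 1.90 and 2.25 CPM against 19.5 and 10.7 CPM (2.84 ± 0.60, edgeR adjusted p = 0.0366). For all 5 genes every exp2 library lay above every exp1 library, but the exp2 libraries differed more from each other for Cdx2 and Lef1 than for T, Sp5 and Cdx1. The Cdx2 call was lost without exp2_2 (adjusted p = 0.398) and the Lef1 call without exp2_1 (1.0) or exp2_2 (0.143).

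The bases before the start sites of T, Sp5, Cdx2 and Lef1 are shown, 4 of these 5 targets, because TCF and LEF factors bind a short motif that can be searched there. They are the 250 bases before each start in RefSeq's mouse table (GRCm38.p6), 5′ to 3′ on the gene's strand; capitals mark CTTTGAA or CTTTGAT on either strand (on the reverse strand TTCAAAG or ATCAAAG). T lies at chr17:8434173-8434422 (plus strand), Sp5 at chr2:70474673-70474922 (plus), Cdx2 at chr5:147307250-147307499 (minus) and Lef1 at chr3:131110047-131110296 (plus).
T: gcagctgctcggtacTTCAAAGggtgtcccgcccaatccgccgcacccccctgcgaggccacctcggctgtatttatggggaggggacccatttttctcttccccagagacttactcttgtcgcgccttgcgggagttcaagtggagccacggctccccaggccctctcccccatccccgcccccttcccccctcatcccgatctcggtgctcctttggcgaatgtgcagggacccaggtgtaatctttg
Sp5: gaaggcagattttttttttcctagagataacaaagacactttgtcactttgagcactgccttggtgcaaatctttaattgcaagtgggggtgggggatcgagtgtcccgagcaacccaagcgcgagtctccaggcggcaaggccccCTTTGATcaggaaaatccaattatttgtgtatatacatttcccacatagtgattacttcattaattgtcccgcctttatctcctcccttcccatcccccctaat
Cdx2: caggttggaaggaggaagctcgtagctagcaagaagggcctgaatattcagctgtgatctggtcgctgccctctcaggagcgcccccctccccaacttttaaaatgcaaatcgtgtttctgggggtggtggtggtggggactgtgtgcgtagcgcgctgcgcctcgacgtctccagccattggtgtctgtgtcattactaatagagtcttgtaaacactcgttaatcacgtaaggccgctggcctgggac
Lef1: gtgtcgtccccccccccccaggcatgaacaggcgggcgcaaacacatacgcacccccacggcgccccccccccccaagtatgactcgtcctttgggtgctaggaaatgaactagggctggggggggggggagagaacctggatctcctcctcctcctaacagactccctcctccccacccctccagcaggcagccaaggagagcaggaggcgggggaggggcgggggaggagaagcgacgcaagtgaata
The window of T held 1 match that began 235 bases before the start and that of Sp5 held 1 that began 104 bases before it. Those of Cdx2 and Lef1 held 0 in the 300 bases searched (250 before and 50 after the start), which says only that these letters are not in this window. Of the 28 genes higher in experiment 2, 20 had an entry in the table. A match was found in 5 of them (25%), namely T, Sp5, Ggt1, Gstm3 and Nr2f2, and in 1 of 16 lower genes (6.25%). One was found in 2370 of all 27025 promoters in the set (8.77%), and in 461 of 8003 of tested genes (5.76%). A match is a description of the letters, not a bound site.

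The list of 24 beta-catenin and TCF targets had 16 tested members. Of these, 5 were called higher and 0 lower in experiment 2 (0.278% and 0.238% of all tested genes were). Without overlap, 11 of 16 were higher and 1 was lower (21.4% and 19.7% of all). The median log2 fold change of the 16 was 1.40. Among the called members, T, Cdx1, Cdx2 and Lef1 passed the filter on low counts only through their reads in experiment 2. The filter thus in part set these values. With no filter, 24 members were tested and the median was 1.58. The list was compiled with earlier results of these data known. Axin2, the feedback inhibitor that scaffolds beta-catenin destruction, held 18.4 and 16.6 CPM against 46.2 and 36.3 CPM. Both exp2 values were above both exp1 values, yet Axin2 did not pass (1.24 ± 0.33 on the log2 scale, 95% interval 0.55 to 1.93, edgeR adjusted p = 0.106). It passed without exp1_1 (adjusted p = 0.0118) or exp1_2 (0.0227). Tcf7, another partner of beta-catenin, held 15.9 and 8.98 CPM against 32.6 and 39.2 CPM (1.53 ± 0.38, edgeR adjusted p = 0.0753), and the D-type cyclin Ccnd2 held 6.66 and 10.9 CPM against 21.9 and 34.6 CPM (adjusted p = 0.0962). The lowest member was the Wnt receptor Fzd7, at 6.34 and 6.74 CPM against 0.888 and 1.78 CPM (-2.28 ± 0.86, adjusted p = 0.313). The number of members called higher was 4 without exp2_1, 3 without exp2_2 and 3 with limma-voom, and 10 without exp1_1 and 8 without exp1_2.

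Of the components of the pathway, beta-catenin itself was not called. Ctnnb1, which encodes beta-catenin, held 596 and 462 CPM against 642 and 548 CPM, and the experiments overlapped (0.17 ± 0.19, edgeR adjusted p = 0.817). Of 24 tested Wnt ligands, receptors and TCF factors, a list added after the values had been seen, 2 were higher (Wnt5b and Lef1) and 1 was lower (Tcf7l1). Of all tested genes 0.278% were called higher and 0.238% lower. Without overlap, 10 members were higher and 3 lower (21.4% and 19.7% of all), and the median was 0.36. Wnt5b, a ligand, held 2.22 and 5.89 CPM against 23.7 and 24.9 CPM (2.55 ± 0.50, edgeR adjusted p = 0.0229). Tcf7l1, the repressor that beta-catenin counteracts in ES cells, held 315 and 265 CPM against 133 and 122 CPM. It was 2.28-fold lower in experiment 2 (-1.19 ± 0.20, edgeR adjusted p = 0.00588). Neither call held without exp2_1 (adjusted p = 0.151 for Wnt5b and 0.213 for Tcf7l1) or without exp2_2 (0.359 and 0.524).

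The list of primitive streak and mesoderm genes shares T and Sp5 with the target list, and no other tested member passed. Of 16 members 7 were tested, of which 2 were called higher (0.278% of all tested genes were). Of the 7, 6 did not overlap and were higher (21.4% of all), and the median log2 fold change was 2.69. At least T, Evx1 and Mixl1 passed the filter on low counts only through experiment 2, so the filter in part set these values. With no filter, 14 members were tested and the median was 2.30. The summed level of all 16 was 50.6 and 53.5 CPM in experiment 1 and 311 and 308 CPM in experiment 2, before TMM scaling. T and Sp5 made up most of the higher sums. Fst, the activin antagonist follistatin, held 3.17 and 3.37 CPM against 16.6 and 15.7 CPM (edgeR adjusted p = 0.0561), and the homeobox factor Evx1 held 2.22 and 1.68 CPM against 15.1 and 10.3 CPM (0.0636). Mixl1, a streak homeobox factor, had 2 reads in experiment 1 and 53 in experiment 2, a 30.1-fold higher read rate (95% counting interval 7.92 to 255, adjusted p = 0.0538). Eomes, which acts in streak and trophoblast, held 5.71 and 3.65 CPM against 2.07 and 7.84 CPM and overlapped.

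Hox and Cdx genes, which pattern the posterior body and of which several are Cdx targets, were looked at as a list added after the values had been seen. Of 16 tested members 3 were called higher (Cdx1, Cdx2 and Hoxa7) and 0 lower, against 0.278% and 0.238% of all tested genes. Of the 16, 13 did not overlap and were higher (21.4% of all), and the median log2 fold change was 2.72. Members low in both experiments were dropped by the filter on low counts. At least Cdx1, Cdx2, Hoxa7, Hoxa9 and Hoxd9 passed it only through their reads in experiment 2. The filter thus in part set this share and this median. Hoxa7 held 0 and 1.12 CPM against 9.47 and 19.9 CPM (edgeR adjusted p = 0.0152). With 4 reads in experiment 1, its fitted log2 fold change ran from 3.35 to 8.51 over the alternatives, and the call was lost without exp2_2 (adjusted p = 0.966). Hoxa9 had 0 reads in experiment 1 and 38 in experiment 2, at least 14.4-fold higher against a floor of 3 reads over the group (adjusted p = 0.0538), and with it at this bound the median stayed at 2.72. Hoxd9 had 3 and 54 reads, a 20.4-fold higher read rate (95% counting interval 6.63 to 102; adjusted p = 0.0750). Hoxb9, at 28.2 and 24.98 CPM against 28.1 and 36.0 CPM, overlapped, and Hoxc13 lay without overlap in the other direction (log2 fold change -0.44, adjusted p = 0.802). Whether counting used the strand is not stated, so reads of Hox genes and of transcripts antisense to them cannot be told apart. Without exp2_2, 1 member of this list was called, as with limma-voom and with all 10 libraries in the fit, and 6 were called without exp1_1 or exp1_2.

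**Figure D3:**
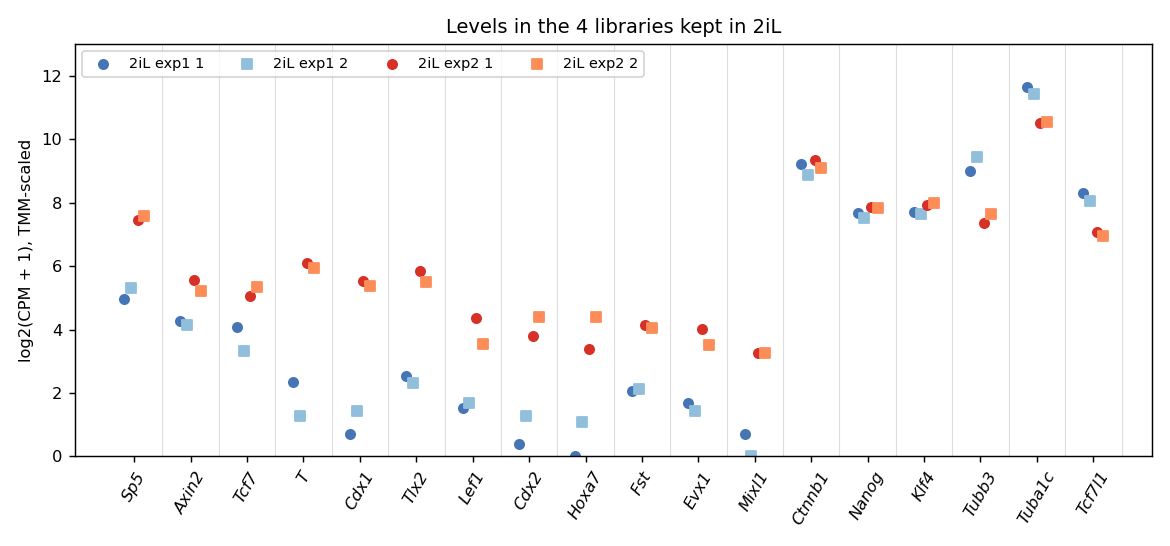
Level of 18 genes as log2(CPM + 1) after TMM scaling (vertical axis) in the 4 libraries kept in 2iL, with blue points for experiment 1 and red or orange points for experiment 2. From Sp5 to Mixl1 both exp2 points lie above both exp1 points; Ctnnb1, Nanog and Klf4 lie close together; Tubb3, Tuba1c and Tcf7l1 lie lower in experiment 2.

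Genes higher in experiment 2 also included factors outside these lists. Tlx2 (ENSMUSG00000068327, chromosome 6, 83068324 to 83070293), a homeobox factor of mesoderm and neural crest derivatives, held 4.76 and 3.93 CPM in experiment 1 and 56.2 and 44.5 CPM in experiment 2. The groups were far apart, an 11.6-fold rise (3.53 ± 0.39 on the log2 scale, edgeR adjusted p = 5.85e-05). Tnni1, the slow skeletal troponin I gene, held 5.39 and 4.21 CPM against 39.9 and 48.4 CPM, a 9.17-fold rise (3.20 ± 0.40, edgeR adjusted p = 0.000252). Cavin1, which coats caveolae, held 73.6 and 90.9 CPM against 218 and 260 CPM (1.54 ± 0.21, edgeR adjusted p = 0.000758), and its call was lost without exp2_2 (0.126). The amino acid transporter Slc38a4 held 51.1 and 38.4 CPM against 135 CPM in each exp2 library (1.59 ± 0.24, edgeR adjusted p = 0.00186; 0.122 without exp2_2). Nos1, neuronal nitric oxide synthase, held 9.51 and 17.1 CPM against 52.7 and 79.8 CPM (2.30 ± 0.34, edgeR adjusted p = 0.00214; 0.218 without exp2_2). Mgll, a lipase that breaks down monoacylglycerol, had 2 reads in experiment 1 and 83 in experiment 2, a 47.1-fold higher read rate (95% counting interval 12.6 to 395; adjusted p = 0.00613). The Mgll call was lost without exp2_1 (0.278) or exp2_2 (0.0645) and with limma-voom, and its fitted log2 fold change ran from 3.50 to 8.37 over the alternatives. Calr4, Gstm3, Fam198b and Rlbp1 were each 8.99- to 16.7-fold higher, from 4 to 14 reads in experiment 1. All 4 calls were lost without exp2_2 (adjusted p from 0.171 to 0.615) and with limma-voom, and those of Gstm3, Fam198b and Rlbp1 also without exp2_1 (0.132, 0.0547 and 0.569). Their fitted log2 fold changes ran from 2.44 to 5.82 for Gstm3, 2.76 to 5.76 for Calr4, 2.66 to 3.83 for Fam198b and 2.88 to 5.06 for Rlbp1.

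Among signalling readouts, Egr1 rose. This immediate early factor, which ERK signalling induces, held 1.27 and 3.09 CPM in experiment 1 and 33.7 and 19.2 CPM in experiment 2 (ENSMUSG00000038418, chromosome 18, 34859823 to 34864984). Both exp2 libraries lay above both exp1 libraries, an 11.8-fold rise (3.56 ± 0.55 on the log2 scale, edgeR adjusted p = 0.00292), and the call was lost without exp2_1 (adjusted p = 0.101) and with limma-voom. It was the only called member of 18 tested ERK feedback and immediate early genes (0.278% of all tested genes were called higher). Without overlap, 13 were higher and 1 was lower (21.4% and 19.7% of all tested genes), and the list's median was 0.59. The ERK feedback genes Dusp6 (28.9 and 23.9 CPM against 39.9 and 38.1) and Spry4 (3.81 and 2.53 against 7.40 and 3.92) did not pass (edgeR adjusted p = 0.525 and 0.767). Of 20 tested LIF and STAT3 genes only the kinase Pim1 was called (0.278% of all tested genes were called higher). Without overlap, 7 were higher and 6 lower (21.4% and 19.7% of all), and the list's median was -0.10. Pim1 held 53.6 and 48.5 CPM against 116 and 115 CPM (1.18 ± 0.23, edgeR adjusted p = 0.0213). Its call was lost without exp2_1 or exp2_2. Socs3, the feedback inhibitor of the STAT3 pathway, held 7.61 and 6.45 CPM against 8.58 and 12.1 CPM (edgeR adjusted p = 0.780).

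Factors of the naive state were not called apart from 1. At an unadjusted p below 0.05, 5 of 32 tested members were higher and 7 lower (557 and 559 of all 10090 genes). Without overlap, 12 were higher and 10 lower (21.4% and 19.7% of all). The log2 fold changes of members ran from -1.59 to 1.26, so a median near 0 does not mean that single members were alike. Nanog held 205 and 180 CPM against 232 and 228 CPM, and the 95% interval of its log2 fold change ran from -0.14 to 0.66. Klf4 held 209 and 200 CPM against 241 and 254 CPM (-0.12 to 0.67), and Tfcp2l1 held 950 and 880 CPM against 820 and 874 CPM (-0.48 to 0.26). Klf2 (-0.40 to 0.39), Tbx3 (-0.32 to 0.51), Zfp42 (-0.73 to 0.14), Sox2 (-0.43 to 0.45) and Pou5f1 (-0.71 to 0.68) had intervals that held 0. Differences within these intervals were not detectable with 2 libraries per group. Klf5 held 252 and 261 CPM against 340 and 343 CPM, with an interval above 0 (0.02 to 0.80), and was not called (edgeR adjusted p = 0.420). Of 32 tested naive genes 1 was called, Dppa3 (Stella, a maternal factor that also marks germ cells). Of all tested genes 0.278% were called higher. Dppa3 held 27.0 and 29.7 CPM against 68.7 and 63.1 CPM (1.21 ± 0.27, edgeR adjusted p = 0.0495). The list's median was 0.05, and the Dppa3 call was lost without exp2_1 (0.673) or exp2_2 (0.695) and with RLE scaling. Prdm14, a naive repressor, held 1.27 and 10.1 CPM in exp1_1 and exp1_2 against 15.7 and 12.1 CPM, so that 1 library set the difference (1.26 ± 0.64, adjusted p = 0.489).

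The list of formative and primed epiblast genes, many of which rise as cells leave the naive state, had 2 called members, in opposite directions. Of 21 tested members Lef1 was called higher and Tcf7l1 lower (0.278% and 0.238% of all tested genes were). Without overlap, 8 were higher and 8 lower (21.4% and 19.7% of all), and the median was -0.04. Tcf7l1 held 276 and 210 CPM in experiment 1 at 96 h without DOX, within or below its 2iL values there (315 and 265 CPM). In experiment 2 it held 161 CPM at 96 h without DOX. Otx2, a formative factor, held 41.9 and 40.7 CPM against 14.5 and 18.9 CPM without passing (-1.31 ± 0.33, edgeR adjusted p = 0.0861). It passed without exp1_1 or exp1_2 (0.0146 and 0.00809). Dnmt3l, a cofactor of de novo DNA methylation, held 176 and 169 CPM against 83.5 and 107 CPM (-0.86 ± 0.21, adjusted p = 0.0742). Dnmt3a and Dnmt3b were not called (adjusted p = 0.736 and 0.841). Fgf5 and Sox17 had at most 8 reads over a group and were not tested, nor was Gata6.

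The genes lower in experiment 2 were led by Tubb3 (ENSMUSG00000062380, chromosome 8, 123411424 to 123422015), a beta-tubulin known from neurons. It held 513 and 685 CPM in exp1_1 and exp1_2 and 163 and 200 CPM in exp2_1 and exp2_2. Every exp1 library lay above every exp2 library, a 3.30-fold lower level in experiment 2 (-1.72 ± 0.21 on the log2 scale, edgeR adjusted p = 0.000165). Tuba1c, an alpha-tubulin, held 3202 and 2757 CPM against 1472 and 1488 CPM, 2.01-fold lower (-1.01 ± 0.18, edgeR adjusted p = 0.00857; 0.569 without exp2_1 and 0.829 without exp2_2). Of 12 tested tubulin genes, a list added after the values had been seen, these 2 were called and the median was -0.55. Of all tested genes 0.238% were called lower. Tuba1b (6973 and 3700.3 CPM against 3502 and 3561) and Tubb2b (2071 and 1206 against 1111 and 1086) stood apart mainly in exp1_1. Without exp1_1 the tubulin median was -0.14 with 3 called, and without exp1_2 it was -0.83 with 8 called. Reads of near-identical tubulin copies may be split or dropped by unique counting, so single tubulin levels are uncertain. Of 10 tested neural genes Tubb3 was the 1 called (0.238% of all tested genes were called lower). Without overlap, 2 neural genes were higher and 4 lower (21.4% and 19.7% of all), and the median of the list was -0.20.

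Of the p53 and ATF4 target lists 3 genes were lower in experiment 2. Gdf15, a secreted factor induced by p53 and by the integrated stress response, held 192 and 253 CPM against 65.1 and 86.6 CPM, with no overlap. It was 2.94-fold lower in experiment 2 (-1.56 ± 0.22, edgeR adjusted p = 0.00149), and the call was lost without exp2_1 (0.129). Sesn2, a leucine sensor that p53 and ATF4 induce, held 119 and 147 CPM against 63.6 and 58.1 CPM (-1.13 ± 0.23, edgeR adjusted p = 0.0249), and Slc7a3, a transporter of cationic amino acids, held 112 and 94.0 CPM against 45.3 and 47.4 CPM (-1.15 ± 0.24, adjusted p = 0.0324). Both calls were lost without exp2_1 (0.338 and 0.529) or exp2_2 (0.785 and 0.695). Of 24 tested p53 targets 2 were lower (Gdf15 and Sesn2) with a median of -0.21. Of 35 amino acid and ATF4 targets 2 were lower (Sesn2 and Slc7a3) with a median of -0.20. Of all tested genes 0.238% were called lower. Without overlap, 10 p53 targets were lower and 2 higher, and 13 ATF4 targets were lower and 7 higher (19.7% and 21.4% of all). At an unadjusted p below 0.05, 8 p53 targets were lower and 1 higher, and 5 ATF4 targets were lower and 3 higher (559 and 557 of all 10090 genes). The p53 target Cdkn1a held 239 and 185 CPM against 216 and 196 CPM, and Atf4 itself held 770 and 935 CPM against 696 and 735 CPM; neither was called (adjusted p = 0.973 and 0.679). In 3 other stress lists edgeR's quasi-likelihood test called 0 genes: unfolded protein and heat shock (0 of 24, median -0.04), antioxidant and metal response (0 of 25, median 0.10) and hypoxia response (0 of 20, median -0.23). At an unadjusted p below 0.05 these held 2, 2 and 1 genes, and DESeq2 called 1, 0 and 0.

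Further genes were lower in experiment 2. L1td1, an RNA-binding protein of ES cells, held 824 and 810 CPM against 415 and 488 CPM (-0.86 ± 0.18, edgeR adjusted p = 0.0366). Mcam, a cell adhesion molecule, was 3.45-fold lower (87.2 and 54.7 CPM against 21.0 and 19.9), and Pif1, a DNA helicase, 3.12-fold lower (74.5 and 83.1 against 27.2 and 23.2). The largest folds among lower genes rested on few reads: Pga5, a pepsinogen, went from 139 to 15 reads, Naaa, an acid amidase, from 112 to 14, and the linker histone Hist1h1a from 87 to 11. None of these 6 calls held without exp2_2 (adjusted p from 0.254 to 0.791).

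**Figure D4:**
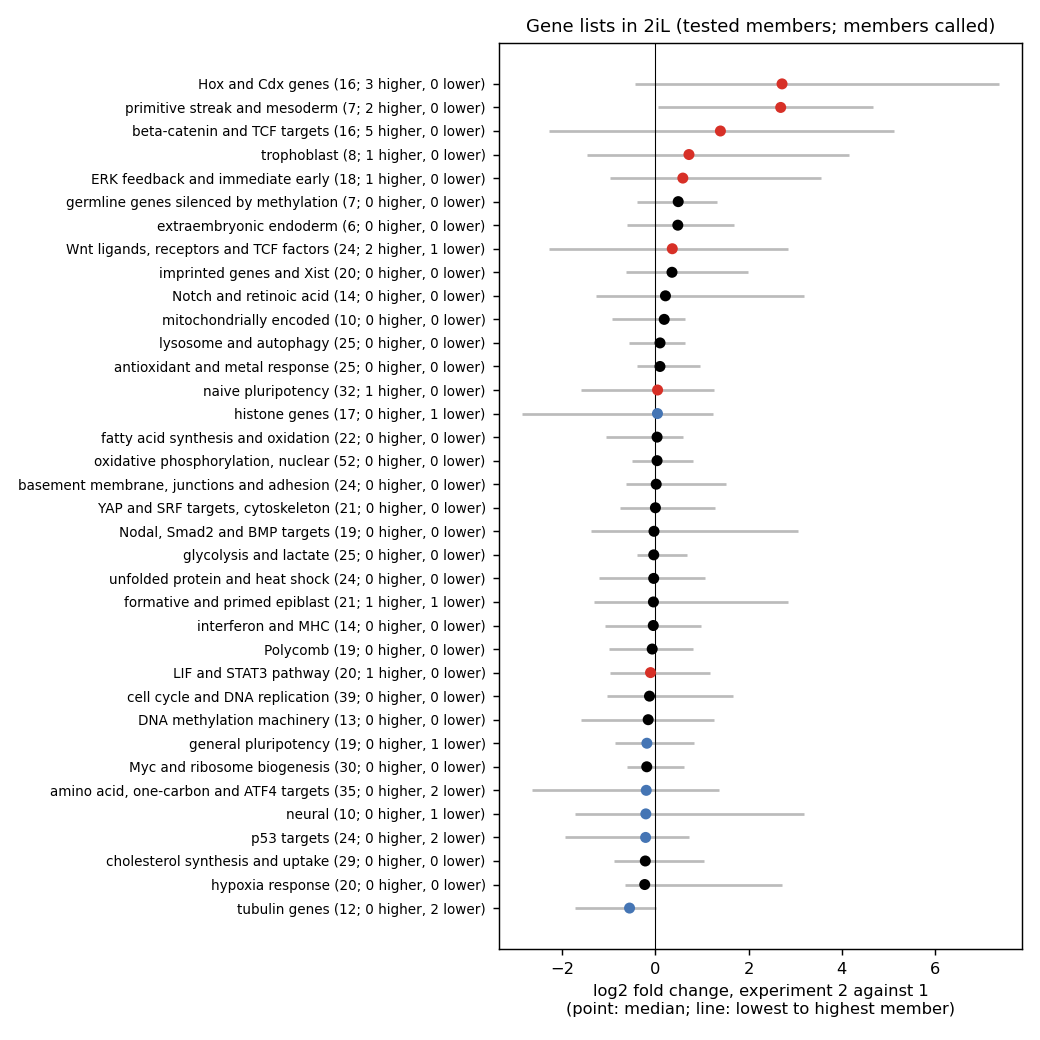
Median (point) and range from the lowest to the highest member (line) of the log2 fold change of experiment 2 against 1 for each gene list with at least 5 tested members; in brackets the number tested and called. Red points are lists with more members called higher, blue points lists with more called lower. The Hox and Cdx, primitive streak and beta-catenin lists lie at 2.72, 2.69 and 1.40, and the tubulin list at -0.55.

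Leaving out libraries changed how many genes were called. There were 17 calls without exp2_1 and 8 without exp2_2, against 493 without exp1_1 and 813 without exp1_2; in the last 2 fits the spread within a group came from the closely matching exp2 pair alone, and the lone library was assumed to vary like it. Of the 52 genes, 6 were called in each of these 4 fits: T, Sp5, Cdx1, Tlx2, Tnni1 and Tubb3. All 52 kept their sign in all alternatives run. Their values did not overlap between experiments, so leaving out a library could hardly reverse a sign. With all 10 libraries in the fit 7 genes were called, 7 higher and 0 lower; this fit also tested more genes (12872) and shared its spread and scaling with the 96 h groups. Without the shallow 96 h DOX library exp1_2 it called 26.

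The comparison at 96 h after 2iL removal rests on 1 library of experiment 2 in each group, so the absence of calls does not show that the experiments were alike there. At 96 h without DOX, experiment 2 (1 library) against experiment 1 (2 libraries) gave 0 called genes of 12872 (0%) by edgeR's quasi-likelihood test (892 at an unadjusted p below 0.05, 6.93%; 0 by DESeq2). With DOX the count was also 0 (918 unadjusted, 7.13%; 1 by DESeq2). The lone exp2 library of each was assumed to vary like the other groups. The count with DOX was 569 without the DOX library exp1_1, which left 1 library on each side, and that without DOX was 3 without the DOX library exp1_2. Of the 28 genes higher in 2iL, 10 had the same sign at 96 h without DOX (median log2 fold change -0.37, against -0.042 for all genes), and 14 with DOX. Of the 24 lower genes, 11 and 15 had the same sign. Across the 10090 genes the fold change in 2iL had a correlation of -0.049 with that at 96 h without DOX and -0.014 with DOX; the comparisons share no library, and genes are not independent replicates.

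Levels show where the targets went. Sp5 held 5.54 and 4.50 CPM in experiment 1 and 5.56 CPM in experiment 2 at 96 h without DOX, so that it was far below its 2iL level in both. Cdx1 held 1.46 and 0.856 CPM against 0.293 CPM, and Tlx2 2.92 and 2.14 against 0.878 CPM. Lef1 went the other way, at 46.7 and 50.7 CPM against 28.1 CPM, above its 2iL level in either experiment. Tubb3 held 541 and 1188 CPM in experiment 1 and 655 CPM in experiment 2, which lay between them.

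For T and Egr1, 2 genes of 12872 (0.0155%), the difference between experiments in 2iL passed the test against that at 96 h without DOX, by the interaction term in edgeR's quasi-likelihood test. Experiment 2 has 1 library at 96 h, and the spread of that arm was taken from the other groups. At an unadjusted p below 0.05 there were 936 (7.27%). T held 5.25 and 2.35 CPM in experiment 1 and 0.293 CPM in experiment 2 at 96 h. Its interaction was 8.03 ± 1.28 on the log2 scale (adjusted p = 0.0212), but experiment 2 rested there on 1 read against 29, a 12.5-fold lower read rate with a 95% counting interval of 2.07 to 511. Egr1 held 46.7 and 57.8 CPM in experiment 1 and 10.8 CPM in experiment 2 (37 reads against 430), the opposite order to that in 2iL. Its interaction was 5.82 ± 0.81 (adjusted p = 0.00513). The T call was lost without exp1_2 (0.0593), exp2_1 (0.0860) or exp2_2 (0.0575) of the 2iL libraries, or without exp1_1 of the 96 h libraries without DOX (0.233), whereas Egr1 passed in every alternative, with adjusted p from 1.1e-08 to 0.0386.

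**Figure D5:**
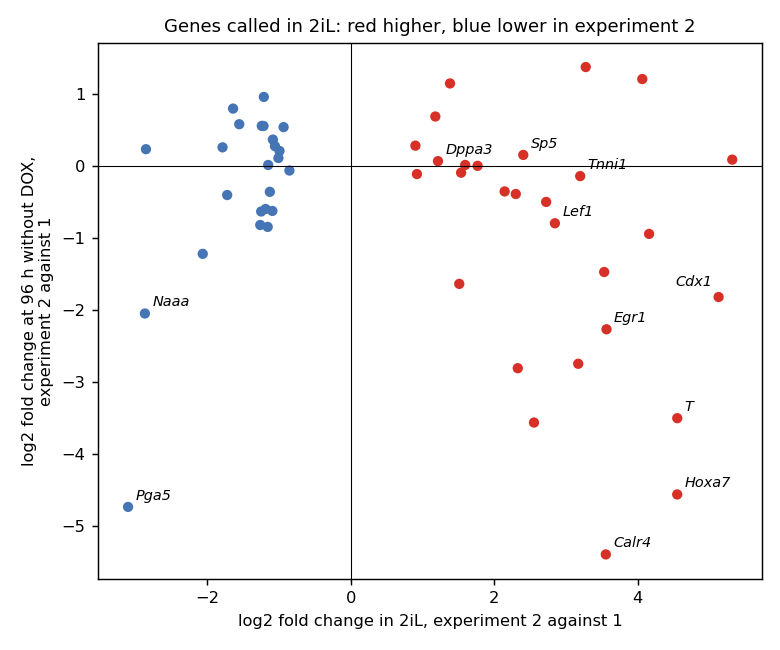
Fitted log2 fold change of experiment 2 against 1 at 96 h without DOX (vertical) against that in 2iL (horizontal) for the 52 genes called in 2iL, red for higher and blue for lower in 2iL. Of the red points 10 of 28 lie above 0 on the vertical axis, and T and Egr1 lie below it; genes with few reads at 96 h have fitted values that depend on the prior count.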

How the data were processed

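The authors deposited read counts per gene for 10 libraries. Per the submitters' processing notes, reads were demultiplexed with bcl2fastq, aligned to mm10 (STAR 2.6.0a) and assigned to genes by HTSeq. The sources used here give neither its annotation release nor its strand setting. The 5 HTSeq summary lines, 62.7% to 64.7% of reads in the 4 libraries compared, were removed. Of 31053 genes, 30934 IDs matched a symbol, and positions are from GENCODE vM21. Genes passing filterByExpr (minimum count 10) were scaled by TMM and fitted with edgeR 4.0.16 (R 4.3.3, robust quasi-likelihood) on the 4 libraries; p-values were adjusted by Benjamini-Hochberg over all tested genes. A gene could pass the filter through 1 experiment alone, whereas list members low in both experiments were not tested. The 96 h comparisons used all 10 libraries in 6 groups. DESeq2 1.42.0, limma 3.58.1, other scalings and filters, the replicate number as a block and leaving out libraries were alternatives. The code was tested on simulated data. Members and lists were chosen with earlier results of these data known; 3 of 40 lists were added after the values were seen. Named genes were a panel, the 12 largest changes in each direction among called genes with at least 10 CPM and no overlap, the 4 most abundant called genes in each direction, up to 3 called genes per list and direction, the 3 genes most unlike within each experiment, and up to 4 interaction genes per direction. Others named were chosen after their values were seen. Intervals and floors built from reads cover counting error only. Same-numbered libraries did not deviate together (correlation 0.0016 over 10090 genes).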

Additional observations from a re-analysis of the deposited data

Results flagged for a closer look

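For 2 genes the difference between experiments in 2iL passed the interaction test against that at 96 h without DOX, where experiment 2 has 1 library, assumed to vary like the other groups. Egr1 had an interaction of 5.82 on the log2 scale (edgeR adjusted p = 0.00513), higher in experiment 2 in 2iL in 2 of 2 libraries and lower in its 1 library at 96 h. T had an interaction of 8.03 (edgeR adjusted p = 0.0212), with 1 read in experiment 2 at 96 h.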

How the results depend on the processing

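Of the 52 called genes, 42 remained with RLE scaling, 45 with upper-quartile scaling, 40 with library totals, 51 with a minimum count of 30, 52 with DESeq2 (74 calls), 33 with limma-voom (39 calls), 51 with limma on log2(CPM + 1) (61 calls) and 42 without Gm42418 and mitochondrial genes. Counts moved by over 1.5 times with no filter (150), with all 10 libraries (7) and with 9 libraries, without the 96 h DOX library exp1_2 (26). Leaving out 1 library gave 8 to 813. With the replicate number as a replicate block the count was 107 on 4 libraries and 13 on all 10; the labels do not say that a number marks a shared culture. The direction of the called genes was kept in all of these, which their lack of overlap between experiments made likely beforehand. Of 35 uncalled named genes, 11 changed sign somewhere and 13 were called somewhere. At 96 h without DOX the count of 0 became 6 with no filter and ran from 0 to 3 without single libraries; with DOX it became 4 with no filter, 1 with DESeq2 and 0 to 569 without single libraries. The interaction count of 2 became 18 with no filter and 1 to 14 without single libraries, and the replicate block changed no call there or at 96 h. With a pseudocount of 5 the 6 library correlations were 0.962, 0.958, 0.956, 0.965, 0.962 and 0.978, in the order exp1_1 with exp1_2, exp2_1 and exp2_2, exp1_2 with exp2_1 and exp2_2, and the exp2 pair. Where no cause is named it was not tested. With 2 libraries per group and 2769071 to 3586901 reads each, modest changes of genes with few reads were not detectable.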

Other observations

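Among 4 metabolic and proliferation lists edgeR called no gene, and DESeq2 called 2, both lower cell cycle genes. Of 29 tested genes of cholesterol synthesis and uptake 0 were called by edgeR's quasi-likelihood test, 8 had an unadjusted p below 0.05 (7 lower, 1 higher), and the median log2 fold change was -0.22. Of 39 cell cycle genes 0 were called, with 9 lower and 2 higher at an unadjusted p below 0.05 and a median of -0.13. For comparison, 1116 of all 10090 tested genes (11.1%) had an unadjusted p below 0.05 in edgeR's test, 559 lower and 557 higher. Nuclear genes of oxidative phosphorylation (0 of 52 called, 3 at an unadjusted p below 0.05, median 0.04) and of glycolysis (0 of 25 called, 1 at an unadjusted p below 0.05, median -0.04) lay near the median of all genes.

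The genes most unlike between libraries of 1 experiment were given by rule. Within experiment 1, Marveld1 held 7.29 and 36.8 CPM, Stk3, a Hippo pathway kinase, 7.29 and 36.5 CPM, and the zinc transporter Slc39a6 9.51 and 44.3 CPM, in exp1_1 and exp1_2. Marveld1 held 4.44 and 2.14 CPM in experiment 2 (adjusted p = 0.0753), and the others lay between the exp1 values there. Within experiment 2, the histone gene Hist1h2ab held 2.07 and 31.0 CPM, the mitochondrial creatine kinase Ckmt1 41.1 and 15.7 CPM, and Memo1 32.6 and 9.97 CPM, in exp2_1 and exp2_2.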
